A study of Mus musculus with 24 samples.

Results

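The genes described here are 10 components of the machinery by which a cell detects double-stranded or foreign RNA: the sensors *Ddx58* (RIG-I), *Ifih1* (MDA5), *Dhx58* (LGP2) and *Tlr3*, the RNA-binding effectors *Eif2ak2* (PKR) and *Adar*, the ubiquitin ligase *Trim25*, the adaptor *Mavs*, and the kinases *Tbk1* and *Ikbke*. They were chosen by gene name, and all 10 were found among the 55487 genes of the count table. Each had 1 entry, and each passed the filter on low counts in every comparison. They were followed in AML-12 cells, an established line of mouse hepatocytes, by BRB-seq, which barcodes bulk RNA, pools it early and reads only the 3′ end of each mRNA. The study loaded these cells with palmitate, a saturated fatty acid, to model steatosis, and silenced *Bmal1* and *Chrebp* to ask whether these transcription factors interact.

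There were 24 libraries, 4 in each of 6 groups. Cells of the BSA group were given only the albumin carrier and those of the PAL group 0.25 mM palmitate, without transfection of either. The CON, BMAL1, CHREBP and BOTH cells all received 0.25 mM palmitate and were transfected with endoribonuclease-prepared small interfering RNA (esiRNA), a pool of short double-stranded RNAs cut from a longer one, 24 hours before collection. In CON the esiRNA was against *Egfp*, a jellyfish gene with no counterpart in the mouse, at 200 nM. It was against *Bmal1* in BMAL1 and against *Chrebp* in CHREBP, each at 100 nM, and the pair was combined in BOTH for a total of 200 nM. The total dose was therefore matched between CON and BOTH and between BMAL1 and CHREBP, and differed in the other comparisons among them. All libraries came from 1 cell line, and nothing in the labels says that replicates were separate cultures, so that the p-values measure the spread between libraries, which may be technical.

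As background, RIG-I and MDA5 are cytosolic helicases that bind double-stranded RNA and signal through MAVS, a protein of the mitochondrial outer membrane, whereas TLR3 meets double-stranded RNA in endosomes and signals through another adaptor, TICAM1. Both routes reach the kinases TBK1 and IKKε (*Ikbke*), which phosphorylate interferon regulatory factors and so start transcription of type I interferon. Many of the sensors are themselves interferon-stimulated genes, which carry an interferon-stimulated response element (ISRE) and rise when interferon signals back to the cell. Hepatocytes use the pathway in the response to hepatitis viruses.

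Total gene counts were 5399700 to 11237474 per library, and 3 counts, the smallest number treated here as detectable, equal 2.02 to 4.24 normalized counts. Levels below are normalized counts, which are counts divided by the DESeq2 size factor of the library over all 24 libraries. Between 24.9% and 28.0% of reads were not aligned. The hepatocyte markers *Krt8*, *Krt18*, *Hnf4a*, *Ttr*, *Apoe* and *Alb* were present in the libraries, while 8 leukocyte markers summed to 7.21 to 29.8 normalized counts per library, with *Adgre1* and *Cd3e* at 0 in all 24, and 6 stromal and endothelial markers summed to 1.11 to 24.2, with *Col1a2*, *Pdgfrb* and *Cdh5* at 0. The targeted genes were weakly expressed: *Bmal1* (*Arntl* in the table) was 30.1 to 57.5 in CON, 22.3 to 32.9 in BMAL1 and 16.6 to 30.9 in BOTH, and *Chrebp* (*Mlxipl*) was 29.0 to 44.4 in CON, 22.1 to 32.7 in CHREBP and 11.5 to 21.9 in BOTH. DESeq2 called both lower in BOTH than in CON (*Padj* = 0.00994 and 0.00762), *Mlxipl* in CHREBP had *Padj* = 0.593, and *Arntl* in BMAL1, at a log2 fold change of -0.78 (SE 0.28), had no *Padj* because independent filtering removed it. The study itself reports that both genes were silenced, from its transcriptome data and from qPCR, whose values were not used here. In bulk RNA, fewer cells of a type and less RNA per cell cannot be told apart.

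The labels give each library a position. Column 1 held the untransfected groups, column 2 held CON with BMAL1, and column 3 held the groups given *Chrebp* esiRNA. An effect of *Chrebp* esiRNA thus cannot be told apart from one of column, and neither can that of transfection in CON against PAL. The groups that shared a column differed in row, so that row cannot be told apart from palmitate (PAL against BSA) or from *Bmal1* esiRNA (BOTH against CHREBP, BMAL1 against CON). Column and row both differed in CON against PAL, BOTH against CON and CHREBP against BMAL1. Some libraries stood apart for these genes, and are named where a result rests on them. For the 7 genes that rose (given below), replicate 1 was the lowest CON library for 7 of 7, replicate 3 the lowest CHREBP library for 7 of 7, and replicate 2 the highest BOTH library for 7 of 7.

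Promoter windows of 9 of the 10 genes were found in the RefSeq table on GRCm38.p6 (250 bases before the start of transcription and 50 after it, 11 windows because *Adar* has 3). *Dhx58* had no entry. The ISRE core, searched on both strands as GAAA, any 2 bases and GAAA, was in the windows of 3 of the 9 genes, *Ddx58*, *Ifih1* and *Eif2ak2*, and in 3.44% of the 32851 windows of the table (windows of 3.99% of its 27025 genes). It lay close to the start in each case, at bases 3 to 12 after it in *Ddx58* (on the other strand), 33 to 42 in *Ifih1* and 19 to 28 in *Eif2ak2*. Of the other genes that rose, *Tlr3*, *Trim25* and *Adar* held no match, and neither did *Mavs*, *Tbk1* and *Ikbke*. The 3 windows with a match are printed because they hold the motif of interferon-stimulated genes, with those of *Tlr3*, which rose, and *Mavs*, which was called in no comparison, as windows without one. Each is given 5′ to 3′ on the strand of the gene, with the ISRE core in capitals.
*Ddx58* (chr4:40239776-40240075, - strand): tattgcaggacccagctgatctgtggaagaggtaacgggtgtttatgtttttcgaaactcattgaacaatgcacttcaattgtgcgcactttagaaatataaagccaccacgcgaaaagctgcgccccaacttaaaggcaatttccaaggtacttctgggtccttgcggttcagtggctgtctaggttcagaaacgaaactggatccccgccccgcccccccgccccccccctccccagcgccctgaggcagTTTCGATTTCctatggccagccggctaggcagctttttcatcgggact
*Ifih1* (chr2:62646206-62646505, - strand): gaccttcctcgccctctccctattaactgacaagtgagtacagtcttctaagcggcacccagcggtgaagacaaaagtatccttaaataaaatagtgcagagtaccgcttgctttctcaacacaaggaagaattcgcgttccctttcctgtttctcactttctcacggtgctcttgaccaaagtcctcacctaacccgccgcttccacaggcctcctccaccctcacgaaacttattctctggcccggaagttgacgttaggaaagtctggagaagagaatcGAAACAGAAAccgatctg
*Eif2ak2* (chr17:78882523-78882822, - strand): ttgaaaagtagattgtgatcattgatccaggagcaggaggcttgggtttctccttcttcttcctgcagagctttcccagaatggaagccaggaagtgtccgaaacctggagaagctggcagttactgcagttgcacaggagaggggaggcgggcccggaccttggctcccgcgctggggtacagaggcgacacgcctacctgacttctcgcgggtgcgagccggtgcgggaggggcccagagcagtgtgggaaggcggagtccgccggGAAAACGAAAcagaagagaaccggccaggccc
*Mavs* (chr2:131233813-131234112, + strand): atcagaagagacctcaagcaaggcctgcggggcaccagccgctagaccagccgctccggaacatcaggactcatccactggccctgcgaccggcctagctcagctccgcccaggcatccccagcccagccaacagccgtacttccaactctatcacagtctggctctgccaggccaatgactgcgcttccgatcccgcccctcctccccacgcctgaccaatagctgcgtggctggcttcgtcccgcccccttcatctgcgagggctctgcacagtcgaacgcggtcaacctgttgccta
*Tlr3* (chr8:45410331-45410630, - strand): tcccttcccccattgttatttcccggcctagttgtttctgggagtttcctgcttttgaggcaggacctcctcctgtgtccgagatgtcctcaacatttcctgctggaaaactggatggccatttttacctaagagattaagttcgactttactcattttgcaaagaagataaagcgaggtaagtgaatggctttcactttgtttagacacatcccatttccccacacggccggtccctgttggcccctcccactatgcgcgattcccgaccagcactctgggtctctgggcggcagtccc

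Other motifs, again searched on both strands, were commoner in the table. The NF-kB pattern (GGG, any 5 bases, CC) was in windows of 5 of the 9 genes (*Adar*, *Eif2ak2*, *Tbk1*, *Tlr3* and *Trim25*) and in 50.8% of all windows (53.5% of genes). The E-box CACGTG, the site type bound by BMAL1 and its partner CLOCK, was in the windows of *Trim25* and *Tbk1* and in 7.15% of all windows (8.09% of genes). A match describes the letters of the window and not a bound site.

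The cytosolic helicases rose, *Dhx58* by the largest fold of the 10 over CON. *Ddx58* (chromosome 4, 40203773 to 40239828, - strand; GRCm38, as are all coordinates of genes here) encodes RIG-I, which binds short double-stranded RNA with a 5′ triphosphate. Its normalized counts in replicates 1 to 4 were 75.4, 54.2, 71.2 and 79.2 in BSA and 72.6, 82.5, 81.6 and 85.5 in PAL. They were 77.2, 235, 239 and 175 in CON and 95.0, 107, 121 and 101 in BMAL1. They were 527, 432, 391 and 452 in CHREBP and 592, 859, 649 and 695 in BOTH. Every CHREBP library lay above every CON library, every BOTH library above every CHREBP library, and CON replicate 1 sat at the level of the untransfected cells. The fold over CON was 2.47-fold in CHREBP (95% interval 1.72 to 3.56), a log2 fold change of 1.30 (SE 0.27, *Padj* = 0.000104), and 3.83-fold in BOTH, a log2 fold change of 1.94 (SE 0.27, *Padj* = 4.68e-11).

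*Ifih1* (chromosome 2, 62595798 to 62646255, - strand) encodes MDA5, which assembles along long double-stranded RNA. Its normalized counts were 52.2, 54.2, 51.4 and 55.2 in BSA and 50.2, 48.3, 31.3 and 35.8 in PAL. They were 66.4, 148, 165 and 110 in CON and 63.8, 62.7, 74.7 and 66.7 in BMAL1. They were 646, 440, 374 and 383 in CHREBP and 702, 1188, 859 and 437 in BOTH. The CHREBP and BOTH libraries overlapped each other and lay above all others, and the BOTH libraries were the most spread, with replicate 4 within the range of CHREBP. The rise over CON was 3.74-fold in CHREBP, with log2 fold change 1.90 (SE 0.32, *Padj* = 6.71e-07), and 6.47-fold in BOTH, with log2 fold change 2.69 (SE 0.32, *Padj* = 9.41e-15).

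*Dhx58* (chromosome 11, 100694884 to 100704271, - strand) encodes LGP2, a helicase that lacks the signalling domains of RIG-I and MDA5 and modulates them. It was the lowest in count of the 10 without *Chrebp* esiRNA and the one with the steepest rise. Its normalized counts were 8.56, 11.6, 11.7 and 4.24 in BSA and 9.24, 9.05, 0 and 3.89 in PAL, where the raw counts were 7, 9, 0 and 5. They were 4.49, 90.4, 91.3 and 40.6 in CON, from 5, 134, 111 and 35 raw counts, and 6.79, 12.7, 14.4 and 15.5 in BMAL1. They were 619, 337, 259 and 381 in CHREBP and 389, 777, 628 and 548 in BOTH. The spread within CON was wide (CV 74.3%), with replicate 1 among the untransfected values, and yet no CON library reached the lowest CHREBP library. The fold over CON was 7.00-fold in CHREBP (95% interval 3.11 to 15.8), a log2 fold change of 2.81 (SE 0.60, *Padj* = 0.000219), and 10.3-fold in BOTH (95% interval 4.56 to 23.1), a log2 fold change of 3.36 (SE 0.60, *Padj* = 9.85e-07). At matched 100 nM, CHREBP exceeded BMAL1 by 31.9-fold, a log2 fold change of 5.00 (SE 0.63, *Padj* = 3.25e-13). An antisense gene, *Dhx58os*, overlaps *Dhx58*; its highest normalized count in a library was 3.46, and use of strand in the counting is not given in the sources used here.

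**Figure D1:**
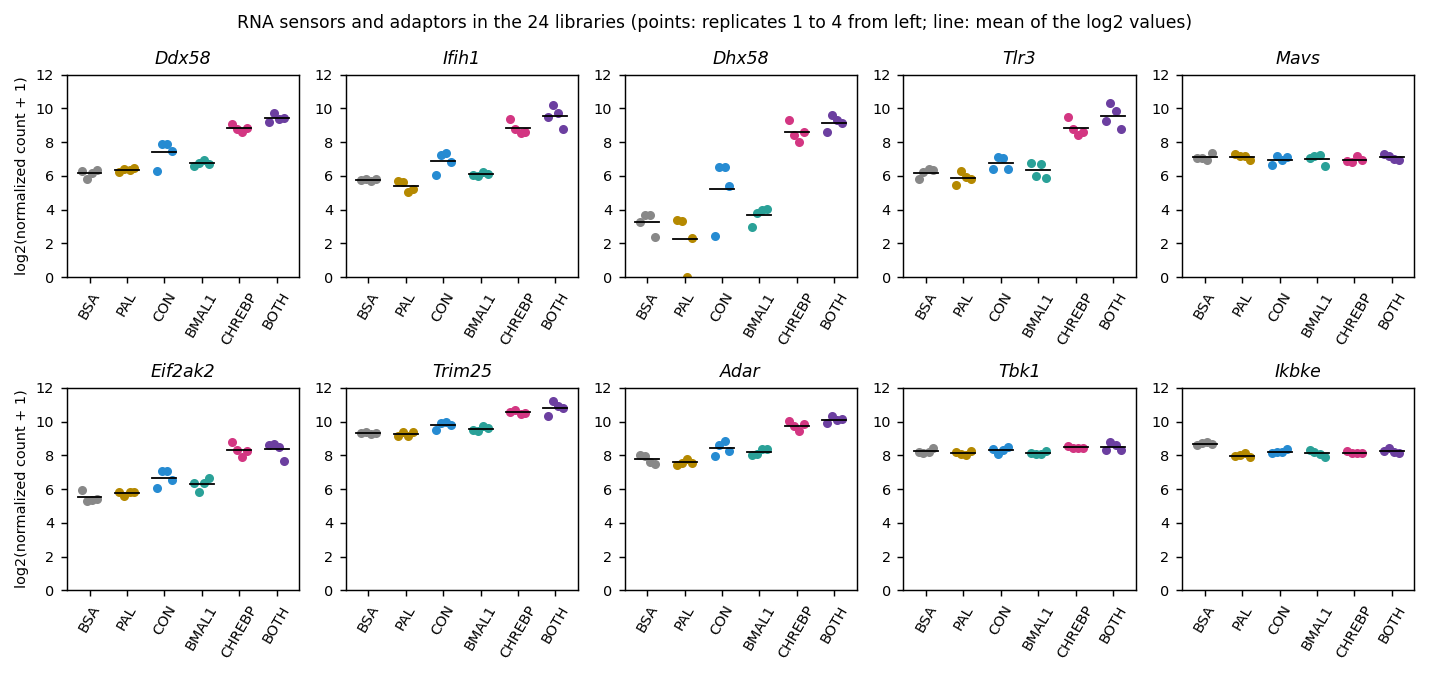
Normalized counts of the 10 genes in every library, on a log2(normalized count + 1) scale, by group; points are replicates 1 to 4 from left to right and the line is the mean of the 4 log2 values. *Ddx58*, *Ifih1*, *Dhx58*, *Tlr3*, *Eif2ak2*, *Trim25* and *Adar* step up between CON and CHREBP with no overlap, the CON and CHREBP points of *Mavs* and *Tbk1* overlap, and *Ikbke* is highest in BSA.

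*Tlr3* (chromosome 8, 45395665 to 45411080, - strand) encodes the endosomal receptor for double-stranded RNA. Its normalized counts were 54.8, 72.5, 83.9 and 79.2 in BSA and 43.6, 75.4, 60.4 and 56.0 in PAL. They were 82.6, 139, 133 and 83.5 in CON and 107, 61.6, 102 and 58.5 in BMAL1. They were 703, 431, 337 and 393 in CHREBP and 606, 1285, 897 and 445 in BOTH. All 8 libraries with *Chrebp* esiRNA lay above the other 16, and BOTH replicate 2 was the highest. The fold over CON was 4.23-fold in CHREBP, a log2 fold change of 2.08 (SE 0.36, *Padj* = 1.13e-06), and 7.35-fold in BOTH, a log2 fold change of 2.88 (SE 0.36, *Padj* = 1.52e-13). In the size of its fold over CON, *Tlr3* came after *Dhx58* in both groups.

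The RNA-binding effectors rose too, in CHREBP and BOTH by smaller folds over CON than *Dhx58*, *Tlr3* and *Ifih1*. *Eif2ak2* (chromosome 17, 78852564 to 78882573, - strand) encodes PKR, which on binding double-stranded RNA phosphorylates the initiation factor eIF2α and slows translation. Its normalized counts were 65.5, 132, 131 and 90.4 in CON, 444, 319, 242 and 306 in CHREBP and 394, 415, 358 and 202 in BOTH, with 38.7 to 60.8 in BSA, 46.3 to 56.8 in PAL and 55.2 to 99.6 in BMAL1. CHREBP and BOTH overlapped, and both lay above CON. The fold over CON was 3.11-fold in CHREBP, a log2 fold change of 1.64 (SE 0.29, *Padj* = 2.31e-06), and 3.25-fold in BOTH, a log2 fold change of 1.70 (SE 0.29, *Padj* = 2.54e-07). Between CHREBP and BOTH the log2 difference was 0.06, with a 95% interval of -0.50 to 0.62.

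*Adar* (chromosome 3, 89715022 to 89753446, + strand) encodes the adenosine deaminase that edits double-stranded RNA and keeps the cell's own RNA from being sensed. Its normalized counts were 250, 397, 466 and 305 in CON, 1028, 842, 687 and 912 in CHREBP and 946, 1290, 1084 and 1125 in BOTH, with 175 to 263 in BSA, 169 to 220 in PAL and 255 to 329 in BMAL1. The CON and CHREBP libraries did not overlap, and *Adar* had the smallest p of the 10 in CHREBP against CON. The fold over CON was 2.43-fold in CHREBP, a log2 fold change of 1.28 (SE 0.15, *Padj* = 8.9e-14), and 3.12-fold in BOTH, a log2 fold change of 1.64 (SE 0.15, *Padj* = 2.08e-24). Counts at the 3′ end do not separate its interferon-inducible long form from its constitutive short form. *Chrnb2*, which overlaps *Adar* on the other strand, had a highest normalized count of 17.4 in a library.

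*Trim25* (chromosome 11, 88999376 to 89020293, + strand) encodes a ubiquitin ligase that modifies and activates RIG-I. Its normalized counts were 717, 984, 1000 and 872 in CON, 1505, 1617, 1399 and 1443 in CHREBP and 1295, 2385, 1971 and 1780 in BOTH, with 614 to 662 in BSA, 561 to 663 in PAL and 687 to 859 in BMAL1. It showed the smallest step of the genes that rose, without overlap between CON and CHREBP, and BOTH replicate 1 was below every CHREBP library. The fold over CON was 1.67-fold in CHREBP, a log2 fold change of 0.74 (SE 0.13, *Padj* = 4.66e-06), and 2.07-fold in BOTH, a log2 fold change of 1.05 (SE 0.13, *Padj* = 3.77e-13).

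The adaptor and the kinases, which relay the signal, were called in few comparisons. *Mavs* (chromosome 2, 131234063 to 131248025, + strand) had normalized counts of 97.0, 145, 119 and 139 in CON, 116, 111, 143 and 121 in CHREBP and 155, 143, 128 and 121 in BOTH, and its 24 libraries ran from 94.1 to 160. Every pair of groups next to each other in the order of means overlapped, and no comparison called it. Its log2 fold change against CON was -0.03 in CHREBP (95% interval -0.35 to 0.29) and 0.13 in BOTH (95% interval -0.20 to 0.45). Both intervals stay below the log2 fold change of 0.74 seen for *Trim25* in CHREBP, the smallest among the genes that rose.

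*Tbk1* (chromosome 10, 121546455 to 121586787, - strand), the kinase that activates IRF3, had normalized counts of 325, 264, 316 and 359 in CON, 285, 274, 273 and 305 in BMAL1, 370, 346, 349 and 347 in CHREBP and 312, 438, 386 and 323 in BOTH. The BMAL1 libraries lay below the CHREBP and BOTH libraries, and CON overlapped all of them. It was called higher in BOTH than in BMAL1, by 1.28-fold (log2 fold change 0.36 (SE 0.12, *Padj* = 0.0277)), and not in the other comparisons. CHREBP against BMAL1 was past the threshold only in a fit of these groups alone (0.31, *Padj* = 0.051) and in one of all 24 libraries (0.31, *Padj* = 0.0977). In BOTH against BMAL1, without BOTH replicate 2 the log2 fold change of 0.25 was no longer past the threshold. Against CON the log2 fold change was 0.16 (SE 0.11, *Padj* = 0.677) in CHREBP and 0.21 (SE 0.11, *Padj* = 0.313) in BOTH.

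*Ikbke* (chromosome 1, 131254343 to 131279606, - strand), which encodes IKKε, an inducible relative of TBK1, was the only one of the 10 called in PAL against BSA. Its normalized counts were 393, 426, 436 and 403 in BSA and 244, 254, 282 and 235 in PAL. They were 279, 298, 292 and 325 in CON, 322, 289, 272 and 234 in BMAL1, 301, 277, 277 and 280 in CHREBP and 301, 338, 289 and 280 in BOTH. The lowest BSA library lay above all 20 libraries that received palmitate, and those 20 overlapped between groups. The fall from BSA to PAL was 1.63-fold, a log2 fold change of -0.70 (SE 0.10, *Padj* = 2.72e-10), and stayed between -0.76 and -0.66 when any 1 library was left out. BSA and PAL sat in different rows, which cannot be told apart from palmitate. Against CON, the log2 fold change of *Ikbke* was -0.07 in CHREBP (95% interval -0.28 to 0.13) and 0.02 in BOTH (95% interval -0.18 to 0.22).

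Palmitate without transfection left 9 of the 10 genes uncalled. In PAL against BSA, DESeq2 called 0 of the 10 higher and 1 lower (*Ikbke*), while 6.65% of the 12827 genes tested were called higher and 7.60% lower; 1 of the 10 had an unadjusted p under 0.05, and edgeR also called *Ikbke* alone. The median log2 fold change of the 10 was -0.15, against 0.0048 for all genes tested. *Ifih1*, like *Ikbke* and 8.24% of the genes tested, was lower in PAL without overlap (51.4 to 55.2 in BSA, 31.3 to 50.2 in PAL), yet its log2 fold change of -0.36 was not past the threshold (*Padj* = 0.4). Markers moved in this comparison as well. Of 9 hepatocyte markers, *Krt18* and *Krt8* were called higher in PAL and *Alb*, *Apoe*, *Ttr* and *Serpina1a* lower. The level summed over all 9 was 44133 to 46897 in BSA and 52999 to 58455 in PAL. The stromal marker *Des* was called lower (log2 fold change -2.59, SE 0.94, *Padj* = 0.0521), and the 6 stromal and endothelial markers summed to 5.995 to 24.2 in BSA and 3.02 to 6.71 in PAL. Their part in the fall of *Ikbke* was not tested.

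Transfection with the *Egfp* esiRNA was accompanied by higher levels of 7 of the genes. In CON against PAL, 7 of the 10 were called higher and 0 lower, while 1.59% of the 12928 genes tested were called higher and 0.920% lower. The called genes were *Dhx58* (10.3-fold, 95% interval 2.31 to 45.8), *Ifih1* (2.99-fold), *Ddx58* (2.25-fold), *Eif2ak2* (1.96-fold), *Tlr3* (1.86-fold), *Adar* (1.86-fold) and *Trim25* (1.46-fold). The median log2 fold change of the 10 was 0.90, against -3.95e-05 for all genes tested. For 5 of the 7 the groups did not overlap, as for 4.18% of the genes tested in the same direction; *Ddx58* and *Dhx58* overlapped through CON replicate 1. These 2 lost the call when any 1 library other than CON replicate 1 was left out, with log2 fold changes of 1.01 to 1.20 and 2.95 to 3.71, and *Tlr3* lost it without CON replicate 2 (0.76) and in a fit of all 24 libraries (0.90, *Padj* = 0.204), so that 4 genes were called without CON replicate 2 and 5 without each of the other 6. With a replicate block in the fit, *Dhx58* also lost the call (3.33, *Padj* = 0.453). Of the hepatocyte markers, *Alb* (log2 fold change 0.63) and *Apoe* (0.52) were called higher in CON and *Krt18* (-0.15) lower, with an unadjusted p under 0.05 for 6 of 9 and a summed level of 51590 to 53457 in CON against 52999 to 58455 in PAL; their part in the result was not tested. Transfection itself, the RNA it delivered and library column and row cannot be told apart here, and the same CON libraries serve as the control in the comparisons that follow.

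None of the 10 was called higher with *Bmal1* esiRNA alone. In BMAL1 against CON, DESeq2 called 0 higher and 1 lower, *Dhx58* (log2 fold change -2.19 (SE 0.63, *Padj* = 0.0881)), while 0.166% of the 13883 genes tested were called higher and 0.324% lower. Unadjusted p was under 0.05 for 3 of the 10 with DESeq2 and with edgeR, and edgeR called 0, as did DESeq2 with a replicate block in the fit. The log2 fold change was negative for 9 of the 10, with a median of -0.34 against -0.00496 for all genes tested. CON and BMAL1 overlapped for all 10 genes. The result turns on single libraries: without CON replicate 1 there were 3 genes called lower, namely *Dhx58* (-2.57), *Ddx58* (-1.04) and *Ifih1* (-1.08), and without any 1 of the other 7 libraries there were 0. In a fit of the 2 groups alone, *Dhx58* had no *Padj* and *Ifih1* was called lower (-0.87, *Padj* = 0.0208). The esiRNA dose was 200 nM in CON and 100 nM in BMAL1, and its part in the difference was not tested.

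*Chrebp* esiRNA went with higher levels of 7 of the genes than in CON. In CHREBP against CON, 7 of the 10 genes were called higher and 0 lower, while 2.65% of genes tested were called higher and 0.771% lower. The 7 were *Dhx58* (7.00-fold), *Tlr3* (4.23-fold), *Ifih1* (3.74-fold), *Eif2ak2* (3.11-fold), *Ddx58* (2.47-fold), *Adar* (2.43-fold) and *Trim25* (1.67-fold), and *Mavs*, *Tbk1* and *Ikbke* were not called. The groups did not overlap for any of the 7, and 5.01% of the genes tested were without overlap in this direction. The median log2 fold change of the 10 was 1.29, against -0.00365 for all genes tested. The same count of 7 was found under every alternative and with any 1 library left out. CHREBP sat in another column than CON, which cannot be told apart from *Chrebp* esiRNA, and *Mlxipl* was not called lower (*Padj* = 0.593). CHREBP received the lower dose of the 2 groups (100 nM against 200 nM). Its reads were less often unaligned (25.8% to 26.7%, against 26.7% to 27.5% in CON). Of 9 hepatocyte markers 0 were called, and 4 had an unadjusted p under 0.05 (*Apoe*, *Hnf4a*, *Serpina1a* and *Serpina1b*), each lower in CHREBP. The part of dose, alignment and markers in the result was not tested.

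At the matched dose of 100 nM, CHREBP against BMAL1 gave 7 of the 10 genes higher and 0 lower (2.90% and 0.915% of genes tested), with the folds ranging from 1.94-fold for *Trim25* to 31.9-fold for *Dhx58*. At the matched dose of 200 nM, BOTH against CON gave 7 higher and 0 lower (5.99% and 3.75% of genes tested), from 2.07-fold for *Trim25* to 10.3-fold for *Dhx58*. The 7 were the same in both comparisons, the groups did not overlap for any of them (nor for 5.05% and 6.42% of the genes tested, in the same direction), and no library or alternative took the call from any of them. Without CON replicate 1 and BOTH replicate 2 together, the log2 fold change in BOTH against CON was 1.56 for *Ddx58*, 2.23 for *Ifih1*, 2.80 for *Dhx58* and 2.45 for *Tlr3*. Hepatocyte markers moved in this comparison as well: 4 of 9 (*Serpina1b*, *Serpina1a*, *Apoe* and *Hnf4a*) were called lower in BOTH. The level summed over all 9, the 5 uncalled included, overlapped (51590 to 53457 in CON, 48221 to 54663 in BOTH). BOTH also had 24.9% to 26.3% of reads not aligned, with 24.9% in replicates 2 and 4. The part of either in the result was not tested. In BOTH against BMAL1 8 of the 10 were called higher and 0 lower (6.35% and 4.08% of genes tested), the 7 and *Tbk1*.

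**Figure D2:**
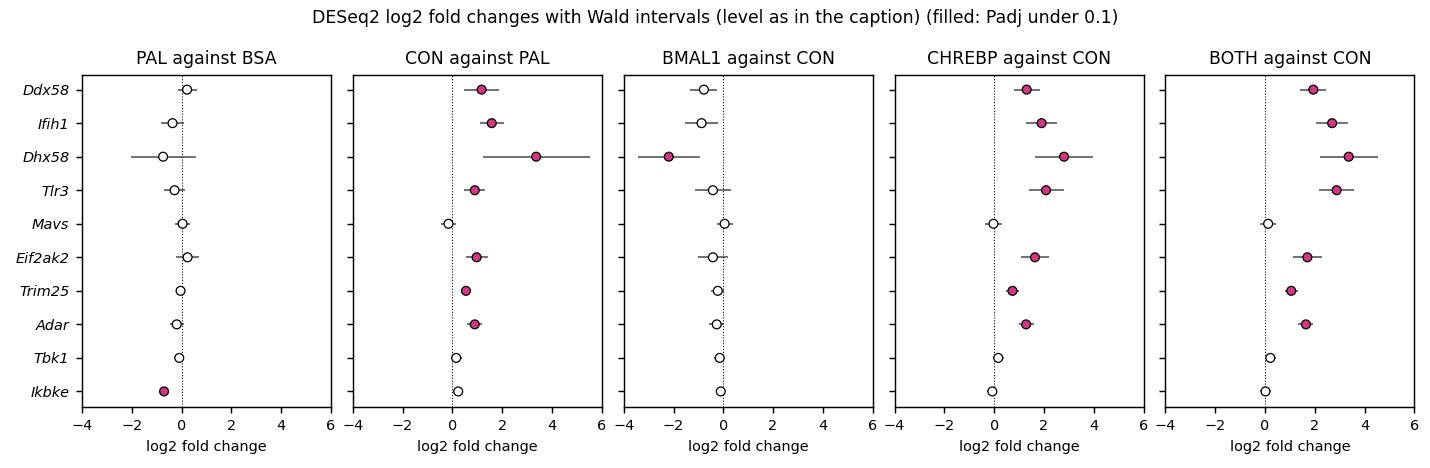
DESeq2 log2 fold changes of the 10 genes with 95% intervals (horizontal axis, the same in every panel) in 5 comparisons; filled points have *Padj* under 0.1. In CON against PAL, CHREBP against CON and BOTH against CON, which share the CON libraries, 7 genes are filled, while *Ikbke* is filled in PAL against BSA, and *Dhx58* is filled in BMAL1 against CON.

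Adding *Bmal1* esiRNA to *Chrebp* esiRNA gave higher means for all 10 genes, by amounts within the spread of the libraries for most. In BOTH against CHREBP, DESeq2 called 0 of the 10 (0.843% of genes tested were called higher and 0.151% lower), with an unadjusted p under 0.05 for 5, and edgeR called 0 with 5. Those 5 were *Tlr3* (log2 fold change 0.79 (SE 0.35, *Padj* = 0.432)), *Ifih1* (0.79 (SE 0.32, *Padj* = 0.337)), *Ddx58* (0.63 (SE 0.27, *Padj* = 0.375)), *Adar* (0.36 (SE 0.15, *Padj* = 0.374)) and *Trim25* (0.32 (SE 0.13, *Padj* = 0.375)). Only *Ddx58* had no overlap between the groups. The median log2 fold change of the 10 was 0.34, against -0.0026 for all genes tested. Here 1 gene was called without BOTH replicate 4 (*Ifih1*, 0.99) and 1 without BOTH replicate 1 (*Trim25*, 0.45). *Ddx58* was called in a fit of these groups alone (0.63, *Padj* = 0.0027) and without CON replicate 1 and BOTH replicate 2 together (0.52, *Padj* = 0.00927). Without BOTH replicate 2 the differences shrank, to 0.48 for *Tlr3*, 0.53 for *Ifih1*, 0.52 for *Ddx58*, 0.28 for *Adar* and 0.17 for *Trim25*, and those of *Eif2ak2* and *Tbk1* turned negative (-0.044 and -0.054). Total dose was 100 nM in CHREBP and 200 nM in BOTH, and its part was not tested.

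The interaction, which is the effect of *Bmal1* esiRNA with *Chrebp* esiRNA minus its effect without, was positive for all 10 genes and was called for 3 of them (1.20% of genes tested were called positive and 0.267% negative). The 3 were the cytosolic helicases *Ddx58* (log2 interaction 1.41 (SE 0.38, *Padj* = 0.0243)), *Ifih1* (1.67 (SE 0.46, *Padj* = 0.0285)) and *Dhx58* (2.74 (SE 0.87, *Padj* = 0.0786)). For *Ddx58* it is the difference between 0.63 in BOTH against CHREBP and -0.78 in BMAL1 against CON, and for *Ifih1* between 0.79 and -0.87. For *Dhx58* most of it came from the second term (0.55 and -2.19), in which CON itself ranged from 4.49 to 91.3. It was not called for *Tlr3* (1.21 (SE 0.51, *Padj* = 0.326)), *Trim25* (0.54 (SE 0.19, *Padj* = 0.158)) or *Adar* (0.62 (SE 0.22, *Padj* = 0.147)). The count was 1 without CON replicate 2 or CON replicate 3, where *Ddx58* was left, and 5 without CON replicate 1 or BOTH replicate 1, where *Trim25* and *Adar* were added. *Dhx58* lost the call without any 1 of 11 of the 16 libraries. It also lost it with a replicate block in the fit (2.42, *Padj* = 0.261), where *Trim25* gained it (0.50, *Padj* = 0.0948). *Tlr3* gained it without BOTH replicate 4 (1.42, *Padj* = 0.0963), *Adar* without CHREBP replicate 1 (0.71, *Padj* = 0.0625) or without CON replicate 1 and BOTH replicate 2 together (0.68, *Padj* = 0.0368), and *Trim25* in a fit of all 24 libraries (0.54, *Padj* = 0.0805). Total dose was 200 nM in CON and BOTH and 100 nM in BMAL1 and CHREBP, so the interaction cannot be told apart from an effect of dose. Row differed along with *Bmal1* esiRNA in each of its terms, and its part was not tested.

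**Figure D3:**
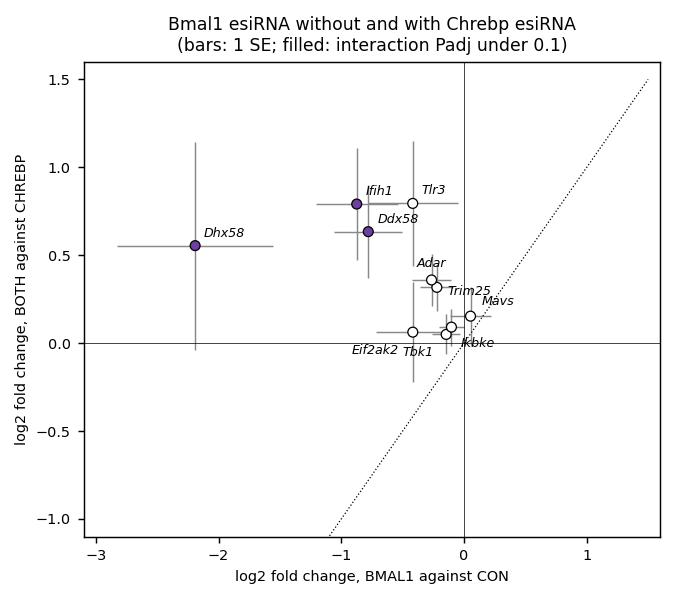
Log2 fold change of each of the 10 genes for *Bmal1* esiRNA without (horizontal axis) and with (vertical axis) *Chrebp* esiRNA, with bars of 1 SE; the dotted line marks equal effects and filled points have an interaction *Padj* under 0.1. All 10 genes lie above the line, and the filled *Dhx58*, *Ddx58* and *Ifih1* combine a negative horizontal with a positive vertical value.

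The order of the groups was shared. Mean levels ran BMAL1, CON, CHREBP, BOTH in ascending order for all 7 genes that rose, with BSA and PAL below them. The step from CON to CHREBP had no overlap for any of the 7, BMAL1 and CON overlapped for all 7, and CHREBP and BOTH overlapped for all but *Ddx58*, where 5.01%, 2.82% (lower in BMAL1) and 1.94% of the genes tested did not overlap. A likelihood ratio test over the 4 esiRNA groups called 8 of the 10 (9.92% of genes tested), the 7 and *Tbk1* (*Padj* = 0.085), which was lost without any 1 of 12 of the 16 libraries and with edgeR. *Mavs* (*Padj* = 0.965) and *Ikbke* (*Padj* = 0.904) were not called.

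The 7 genes moved together from library to library. They were picked by their call in CHREBP against CON in these same libraries, from which a high r over the 24 libraries partly follows. Over the 24 libraries, Pearson's r of their log2 levels was 0.918 to 0.977 in the 21 pairs, with a median of 0.961; much of this is the difference between groups, and within groups, as deviations from the group means, it was 0.286 to 0.731 with a median of 0.591. Pairs among *Mavs*, *Tbk1* and *Ikbke* had r between -0.18 and 0.24 over the 24 libraries, and between -0.17 and 0.48 within groups. *Tbk1* had r of 0.67 to 0.745 with each of the 7 over the 24 libraries, and of -0.116 to 0.365 within groups. The points of such a correlation share a library and its depth, and r is given as a description. In CON, replicate 1 was at 77.2 for *Ddx58*, 66.4 for *Ifih1* and 4.49 for *Dhx58*, where the other CON libraries were at 175 to 239, 110 to 165 and 40.6 to 91.3. In BOTH, replicate 2 was the highest for all 7, with 1285 for *Tlr3* against 445 to 897 in the rest.

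**Figure D4:**
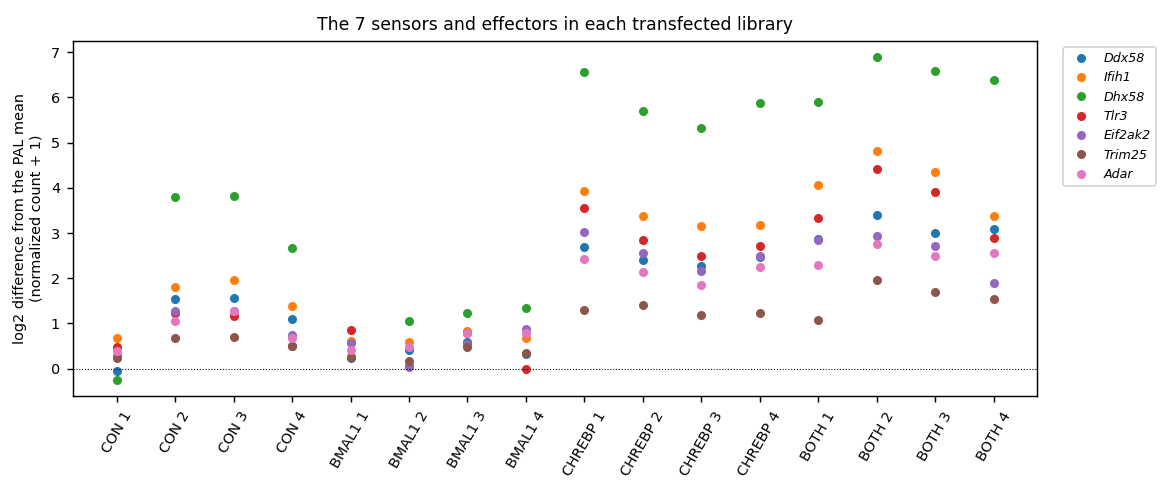
The 7 genes that rose in each of the 16 transfected libraries, as the log2 difference of normalized count + 1 from the PAL mean (vertical axis); each color is a gene and each column of points a library. CON 1 is the lowest CON library for each gene, all CHREBP and BOTH libraries lie higher than the CON libraries for the same gene, and BOTH 2 is the highest BOTH library for every gene.

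Among the genes most like each of these in pattern (highest r over 24 libraries among 9370 genes with a mean of at least 50 normalized counts), *Rnf213* came first for *Ddx58* (r = 0.992), *Trim25* (0.979) and *Adar* (0.987). *Ifit2* came first for *Ifih1* (0.994) and *Tlr3* (0.987), *Tgtp1* for *Dhx58* (0.971) and *Ifi202b* for *Eif2ak2* (0.976). The transcription factor gene *Stat2* (0.991 with *Ifih1*) was also among the first 3. The genes most like the others were less close, *Tmem242* for *Mavs* (0.715) and *N4bp1* for *Tbk1* (0.827). For *Ikbke* they were the chemokine gene *Ccl7* (0.892), the acute-phase gene *Saa3* (0.875) and *Septin4* (0.853).

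Neighboring parts of the pathway were read from lists, whose counts stand beside the shares over all genes tested given above: 2.65% higher and 0.771% lower in CHREBP against CON, and 5.99% and 3.75% in BOTH against CON. Of 12 other RNA sensors and RNA helicases, 9 could be tested in CHREBP against CON, and 2 were higher, *Zbp1* (log2 fold change 2.73, SE 0.60, *Padj* = 0.000442), a sensor of Z-form nucleic acid, and *Ddx60* (2.93, SE 0.95, *Padj* = 0.0588), a cofactor of RIG-I. The housekeeping RNA helicases of the list, such as *Dhx9* and *Dhx15*, were not called. In BOTH against CON 3 were higher (*Zbp1* by 3.75, *Ddx60* by 3.50 and *Ddx21* by 0.22 on the log2 scale) and 1 was lower (*Ddx1*, -0.27). *Zbp1* was 1.80 to 46.9 in CON, 116 to 305 in CHREBP and 263 to 407 in BOTH. *Ddx60* had 0, 3, 12 and 1 raw counts in CON and 13 to 45 in CHREBP, and with any 1 library left out its log2 fold change ran from 2.39 to 4.49 in CHREBP and from 2.80 to 5.05 in BOTH. The call of *Ddx60* in CHREBP was lost without any 1 of 6 of the 8 libraries; *Ddx21* and *Ddx1* were lost in BOTH without any 1 of 5 and 3. *Tlr7* and *Tlr8*, the endosomal receptors of single-stranded RNA, had 0 counts in all 24 libraries. In PAL against BSA, where 6.65% of all genes tested were called higher, 1 of 7 was, *Ddx21* (log2 fold change 0.26, *Padj* = 0.0139), a call lost without BSA replicate 2.

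Of 17 relay genes downstream of the sensors, all tested, 2 were higher in CHREBP than in CON and 0 lower. These were *Irf7*, the interferon-inducible regulatory factor (log2 fold change 2.73, SE 0.55, *Padj* = 6.86e-05), and *Myd88*, the adaptor of most Toll-like receptors other than TLR3 (0.77, SE 0.18, *Padj* = 0.00152). *Irf7* spanned 3.96 to 19.1 in PAL and 18.1 to 74.0 in BMAL1. It spanned 44.9 to 355 in CON, 1071 to 2447 in CHREBP and 2235 to 3651 in BOTH. In BOTH against CON 5 were higher, *Irf7* (3.61), *Myd88* (1.43), *Unc93b1* (0.95), which carries TLR3 to endosomes, *Azi2* (0.53), a scaffold of TBK1, and *Ikbkg* (0.26), the last lost without CON replicate 4. *Irf3*, the factor that TBK1 activates, was not called, at 672 to 709 in CON, 612 to 694 in CHREBP and 602 to 647 in BOTH. The median log2 fold change of the list was 0.12 in CHREBP and 0.16 in BOTH, against -0.00365 and -0.0123 for all genes tested.

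*Irf7* and *Zbp1* were the members of these lists called in the other comparisons with CON. In CON against PAL both were higher, *Irf7* by 4.40 (SE 0.76, *Padj* = 3.45e-06) and *Zbp1* by 4.12 (SE 1.24, *Padj* = 0.0473) on the log2 scale, where 1.59% of all genes tested were called higher. In BMAL1 against CON both were lower, with log2 fold changes of -2.02 for *Irf7* (SE 0.56, *Padj* = 0.0691) and -2.68 for *Zbp1* (SE 0.70, *Padj* = 0.0486), where 0.324% were called lower. With any 1 library left out, *Irf7* kept the call against PAL each time and lost that in BMAL1 in 7 of 8, while *Zbp1* lost the first in 5 of 8 and the second in 4 of 8, with no *Padj* in 1 more; both lost the call in BMAL1 with edgeR and with the replicate block, and *Irf7* also in a fit of the 2 groups alone. The interaction was called as positive for *Zbp1* (3.70, *Padj* = 0.0109), *Irf7* (2.90, *Padj* = 0.0239), lost without CON replicate 2, and *Myd88* (0.80, *Padj* = 0.0976), lost without any 1 of 11 of the 16 libraries, where 1.20% of all genes tested were.

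With palmitate alone, *Ticam1*, the adaptor of TLR3, was lower in PAL than in BSA (143 to 161 against 180 to 301, log2 fold change -0.48, SE 0.15, *Padj* = 0.0219), a call lost without BSA replicate 4 (-0.30), and *Tomm70a*, a mitochondrial import receptor that binds MAVS, was higher (0.31, SE 0.08, *Padj* = 0.0011). The other 15 relay genes were not called. A count of 1 of 17 in each direction is near the shares over all genes tested in this comparison (6.65% higher and 7.60% lower).

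Of 18 modifiers and inhibitors of the sensors, 17 could be tested. In CHREBP against CON 2 were higher, *Rnf135*, the ubiquitin ligase also called Riplet that activates RIG-I (266 to 361 in CON, 509 to 699 in CHREBP, log2 fold change 0.86, SE 0.13, *Padj* = 3.27e-08), and *Otud5*, a deubiquitinase (0.21, SE 0.05, *Padj* = 0.00377), and 0 were lower. In BOTH against CON *Tnfaip3*, the inhibitor A20, was higher as well (0.34, *Padj* = 0.00191), a call lost without CON replicate 1 and BOTH replicate 2 together, and *Rnf5*, a ligase that marks MAVS for degradation, was lower (-0.39, *Padj* = 0.0955), a call lost without any 1 of 5 of the 8 libraries. *Tnfaip3* was lower in PAL than in BSA (-0.33, *Padj* = 3.08e-05), as was *Prkra*, an activator of PKR (-0.21, *Padj* = 0.0822), a call lost without any 1 of 7 of the 8 libraries.

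Of a list of 6 genes (the relatives *Eif2ak1*, *Eif2ak3* and *Eif2ak4* of PKR, its substrate gene *Eif2s1*, and the relatives *Adarb1* and *Adarb2* of ADAR), 5 could be tested and DESeq2 called 0 in CHREBP or BOTH against CON, with 0 at an unadjusted p under 0.05, and edgeR called 0. Their median log2 fold change was 0.0017 in CHREBP and -0.08 in BOTH. *Adarb1* in CHREBP against BMAL1 was at -0.55 (*Padj* = 0.105), and was called lower with edgeR and with a summed count of at least 100. With palmitate alone 1 of the 5 was called, *Eif2s1*, higher in PAL than in BSA (0.32, SE 0.08, *Padj* = 0.00245), where 6.65% of all genes tested were.

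**Figure D5:**
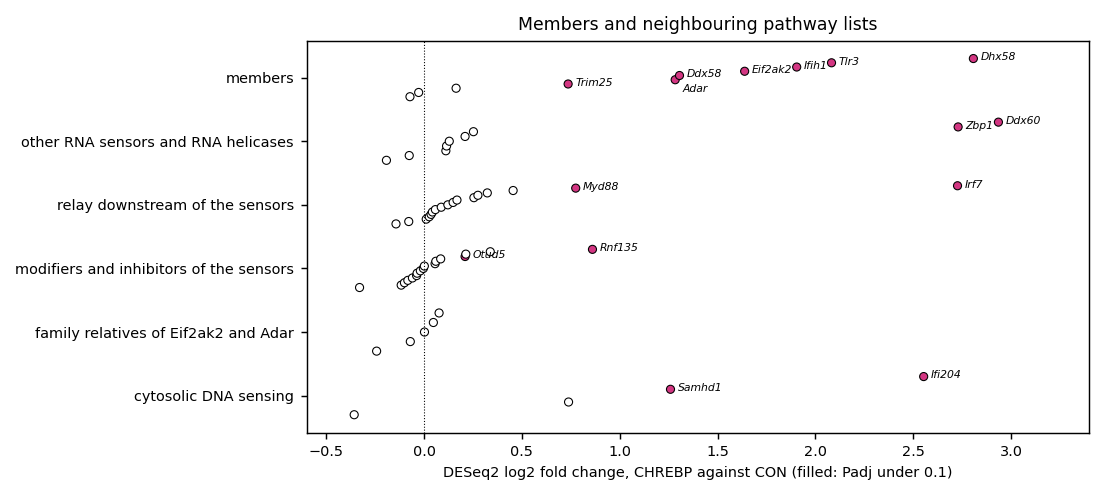
DESeq2 log2 fold changes in CHREBP against CON (horizontal axis) for the 10 genes and the pathway lists (rows; each point a gene, spread vertically for legibility), with filled points at *Padj* under 0.1. The 7 called members lie between 0.74 and 2.81, and in the other lists most points lie near 0, with *Zbp1* at 2.73, *Ddx60* at 2.93, *Irf7* at 2.73 and *Ifi204* at 2.55.

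The product of the pathway was near the limit of detection. Of 20 type I and type III interferon genes, 11 had 0 counts in all 24 libraries, and 8 others had at most 3 counts in any library; members of the *Ifna* family are near-identical in sequence, so their counts are uncertain. *Ifnb1* alone had more. It had 0 raw counts in every BSA and BMAL1 library and at most 1 in PAL. It had 0, 4, 1 and 0 in CON, 8, 5, 2 and 2 in CHREBP, and 9, 37, 12 and 19 in BOTH. DESeq2 called it higher in BOTH than in CON (*Padj* = 0.000101) and in BOTH than in BMAL1 (*Padj* = 1.11e-06), where every BOTH library lay above every CON and BMAL1 library, and higher in CHREBP than in BMAL1 (*Padj* = 0.0134), a call lost without CHREBP replicate 1. In BOTH against CON it had no *Padj* without CON replicate 1, BOTH replicate 1 or BOTH replicate 2, nor in a fit of all 24 libraries, and in BOTH against BMAL1 it had none without BMAL1 replicate 1 or BOTH replicate 2. The call in CHREBP against CON was not past the threshold. BOTH replicate 2, the highest BOTH library for all 7 genes that rose, was also the highest for *Ifnb1*.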

How the data were processed

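Total RNA of AML-12 cells was sequenced by BRB-seq in 24 libraries. After demultiplexing (BRB-seq tools) and alignment to mm10 (STAR), the authors deposited raw counts per gene and library; HTSeq and featureCounts are both named as counters. Versions, annotation, strand and handling of molecular identifiers are not given in the sources used here. The deposited table also held 5 summary lines, which stayed out of totals and tests; reads in no gene were 5.11% to 6.47% of a library. Symbols are those of the table, and coordinates are from GENCODE M21 on GRCm38.

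The deposited counts were tested with DESeq2 1.42.0 in R 4.3.3, as in the study's own methods, after removal of genes whose counts summed to under 25 over the fitted libraries. PAL with BSA, and CON with PAL, were fitted as 8 libraries, and the 4 esiRNA groups as 16. Wald tests gave each comparison and the interaction, a likelihood ratio test any difference among the esiRNA groups, and genes with a Benjamini-Hochberg *Padj* under 0.1 over all genes tested were called. Errors are SD over 4 libraries or the SE of the fit, intervals of fold changes are 95% Wald intervals, and p-values are 2-sided. Depth limits weak genes, and a floor of 3 counts covers counting error only.

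The 10 genes and the pathway lists were chosen with earlier results of these data known. All 10 genes are named in every group. From each list, genes called in the comparison described are named, up to 4 by size, with uncalled ones where few remained; *Tlr7*, *Tlr8*, *Irf3*, *Dhx9*, *Dhx15*, *Ikbkg* and the untested interferon genes were named after their values were seen. For likeness, the 3 genes with the highest Pearson r were listed. Alternatives were edgeR 4.0.16 (quasi-likelihood), TMM scaling, other filters, other sets of libraries, a replicate block, and leaving out each library. Leaving out CON replicate 1 and BOTH replicate 2 together was chosen after seeing the data. The scripts for DESeq2 and edgeR were tested on simulated counts with known fold changes. Besides those given, 1 further gene among the most alike in pattern and 1 further promoter motif are not reported here.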

Additional observations from a re-analysis of the deposited data

Results flagged for a closer look

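In 60 sets of 4 libraries (10 genes in 6 groups), a library stood apart from the other 3 by Dixon's criterion in 4, where chance gives about 1 in 20. *Eif2ak2* in BSA replicate 1 was 60.8 normalized counts against 38.7 to 42.4 in the other BSA libraries, and *Eif2ak2* in PAL replicate 2 was 46.3 against 55.9 to 56.8. In CHREBP replicate 1, *Tbk1* was 370 against 346 to 349 in the other CHREBP libraries and *Ikbke* was 301 against 277 to 280. CON replicate 1 and BOTH replicate 2 met the criterion for none of the 10 genes, although they were the lowest and the highest of their groups for the 7 genes that rose.

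The DESeq2 test of the interaction of *Bmal1* and *Chrebp* esiRNA called 3 genes: *Dhx58* by 2.74 on the log2 scale (*Padj* = 0.0786), *Ifih1* by 1.67 (*Padj* = 0.0285) and *Ddx58* by 1.41 (*Padj* = 0.0243). Total dose was 200 nM in CON and BOTH and 100 nM in BMAL1 and CHREBP. The interaction therefore cannot be told apart from an effect of dose. The term was above 0 with each library left out in turn for all 3, at 2.42 to 3.12, 1.41 to 1.87 and 1.25 to 1.67. The calls were less stable. That of *Dhx58* was lost without any 1 of 11 libraries and with the replicate block, and that of *Ifih1* without CON replicate 2 or CON replicate 3.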

How the results depend on the processing

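The counts of the 10 genes called in PAL against BSA, CHREBP against CON and BOTH against CON were the same under every alternative run. In BMAL1 against CON, 0 genes were called lower with edgeR and with the replicate block, and 3 without CON replicate 1 and BOTH replicate 2; leaving out 1 library gave 0 to 3. In BOTH against CHREBP, 1 was called higher in a fit of these 2 groups alone (*Ddx58*) and 1 without CON replicate 1 and BOTH replicate 2, and leaving out 1 library gave 0 to 1. Leaving out 1 library gave 4 to 7 called higher in CON against PAL and 1 to 5 in the interaction. The causes were not tested. *Dhx58* in BMAL1 against CON had no *Padj* in a fit of the 2 groups alone.

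Whether the replicate number shared by the groups pairs the libraries is not settled. Over 8 pairs of groups, the deviations of same-numbered libraries had correlations averaging -0.0719 to 0.114. In none was every pair above 0.1, and single r ran from -0.28 to 0.32. The same-numbered library was the most alike for 3 of 4 in PAL and CON and in CON and BOTH. It was so for 0 in CON and BMAL1 and in CON and CHREBP, and for 1 or 2 in the other pairs. With the replicate block, 6 genes were called in CON against PAL (without *Dhx58*, 3.33), and *Dhx58* lost the call in BMAL1 against CON (-2.05) and in the interaction (2.42), where *Trim25* gained it (0.50).

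Genes near no change turned in sign. Without CON replicate 1 and BOTH replicate 2, the log2 fold change was -0.052 for *Mavs* in BMAL1 against CON, -0.0025 for *Mavs* and -0.072 for *Ikbke* in BOTH against CON, and -0.044 for *Eif2ak2* and -0.054 for *Tbk1* in BOTH against CHREBP. With 1 library left out, *Mavs* ran from -0.016 to 0.11 in PAL against BSA, -0.052 to 0.19 in BMAL1 against CON, -0.13 to 0.059 in CHREBP against CON, -0.062 to 0.16 in BOTH against BMAL1, -0.21 to 0.0093 in CHREBP against BMAL1 and -0.034 to 0.20 in the interaction. *Ikbke* ran from -0.041 to 0.057 in BOTH against CON and -0.048 to 0.10 in CHREBP against BMAL1. *Eif2ak2* ran from -0.058 to 0.25 and *Tbk1* from -0.054 to 0.11 in BOTH against CHREBP. Low counts limit *Dhx58* outside CHREBP and BOTH, and *Ifnb1* in every group but BOTH.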

Other observations

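Sensors of cytosolic DNA were read from a list of 6 genes, of which 4 could be tested. *Ifi204*, a DNA-binding protein of the interferon-inducible p200 family, spanned 56.8 to 91.5 normalized counts in PAL and 88.2 to 128 in BMAL1. It spanned 103 to 406 in CON, 1102 to 2589 in CHREBP and 1830 to 4366 in BOTH. Its log2 fold change with DESeq2 was 2.55 in CHREBP against CON (SE 0.41, *Padj* = 1.62e-07) and 3.32 in BOTH against CON (SE 0.41, *Padj* = 1.56e-13), and the call held with each library left out in turn. *Samhd1*, which breaks down deoxynucleotides, was 205 to 270 in CON, 393 to 853 in CHREBP and 726 to 1457 in BOTH, a log2 fold change of 1.26 (SE 0.25, *Padj* = 5.43e-05) and 2.08 (SE 0.25, *Padj* = 2.22e-14). *Ifi204* (1.82, *Padj* = 0.00683) and *Samhd1* (0.40, *Padj* = 0.0504) were also called higher in CON than in PAL, where 1.59% of all genes tested were. *Samhd1* lost that call without any 1 of 4 of the 8 libraries. The interaction was called positive for *Ifi204* (2.05, *Padj* = 0.0389) and *Samhd1* (1.17, *Padj* = 0.063), where 1.20% of all genes tested were. These calls were lost without any 1 of 5 and of 11 of the 16 libraries. *Cgas*, the enzyme that makes the messenger cGAMP, was 15.6 to 22.3 in CON, 18.8 to 37.9 in CHREBP and 17.7 to 55.7 in BOTH, and was not called against CON. *Sting1*, which cGAMP activates, was 29.6 to 48.6, 9.97 to 45.6 and 34.7 to 48.0 in the same groups and was not called. Many genes of the p200 family have close copies, so that the count of *Ifi204* is uncertain.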
